A study of Mus musculus with 10 samples.

Results

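Crxos, Bex6, Bhmt and Mep1b are 4 mouse genes that stood among the largest rises on the arrays labelled siSocs3, outside the families of 2-cell-stage and Pramel genes. They were chosen by name from the difference between the siSocs3 and siNonTarget arrays, so that difference is given here as a description with no test. The platform annotation assigns them 5 probe sets (2 to Crxos and 1 to each of the others) of 45101 on the array, and they are 4 of 18194 genes measured. The study hybridised RNA of NG4, a line of mouse embryonic stem cells, to 10 Affymetrix arrays in 5 groups of 2. Every culture was reverse transfected with an siRNA and differentiated with retinoic acid, and RNA was taken 48 h later. The groups received siRNA against Socs3 (siSocs3), Sox17 (siSox17), Fbxw7 (siFbxw7) or Rnf31 (siRnf31), or an siRNA with no target (siNonTarget). The series title names the targets as members of the ubiquitin-proteasome system, although Sox17 belongs to the SOX transcription factors. All groups share the cell line and the retinoic acid, and no array of untreated stem cells is used here.

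Crxos encodes a homeobox protein of the paired-like class, was named for lying beside the photoreceptor gene Crx, and is known from mouse embryonic stem cells and preimplantation embryos. Bex6 is a mouse member of the brain-expressed X-linked (BEX) family of small adaptor-like proteins. Bhmt encodes betaine-homocysteine methyltransferase, which remakes methionine from homocysteine with betaine as methyl donor and is best known from liver. Mep1b encodes meprin beta, a zinc metalloprotease of the astacin family found on the brush border of intestine and kidney. Retinoic acid drives stem cells out of the pluripotent state, and LIF acting through STAT3 holds mouse stem cells in it; SOCS3 is the feedback inhibitor of that signal.

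In assembly GRCm38.p6 Crxos spans bases 15882617 to 15904030 of chromosome 7, with 2661 bases between the end of Crx and its start. Bex6 lies on chromosome 16 (32179800 to 32186944), although the family is named for the X chromosome. Bhmt lies on chromosome 13 (93616891 to 93637758), with 18338 bases between it and its paralog Bhmt2. Both genes, like Crxos, are annotated as protein-coding, and the array gives no genome build of its own.

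The RefSeq promoter table lists 3 starts for Crxos and 1 each for Bex6 and Bhmt. The search left out the chromosome of Mep1b, so it covers 3 of the 4 genes and Mep1b was not searched. The 250 bases before each start were searched for 8 motifs, because the genes were high on the same arrays. The motifs were STAT (TTCNNNGAA), ESRRB (TCAAGGTCA), the nuclear receptor half-site (AGGTCA, whose letters also end the ESRRB motif), the octamer (ATGCAAAT), OTX and CRX (TAATCC), the GC box (GGGCGG), the CCAAT box (CCAAT) and the TATA box (TATAAA), each on both strands. Capitals below mark every match, and each sequence runs 5′ to 3′ on the strand of the gene. The Crxos window shown is the one of its 3 that held a STAT match, chr7:15901396-15901645 on the plus strand, inside the gene span. Bex6 is at chr16:32179550-32179799 on the plus strand and Bhmt at chr13:93637759-93638008 on the minus strand.
Crxos, start 3: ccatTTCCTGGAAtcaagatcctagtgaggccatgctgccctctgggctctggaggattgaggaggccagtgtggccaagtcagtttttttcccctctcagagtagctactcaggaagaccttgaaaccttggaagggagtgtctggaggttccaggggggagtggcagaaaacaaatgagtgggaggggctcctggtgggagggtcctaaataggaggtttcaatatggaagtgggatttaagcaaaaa
Bex6: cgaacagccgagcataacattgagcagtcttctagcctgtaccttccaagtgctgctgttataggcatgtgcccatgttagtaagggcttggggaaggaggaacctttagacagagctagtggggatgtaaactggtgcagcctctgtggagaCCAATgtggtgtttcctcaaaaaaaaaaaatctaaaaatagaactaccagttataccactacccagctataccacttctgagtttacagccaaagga
Bhmt: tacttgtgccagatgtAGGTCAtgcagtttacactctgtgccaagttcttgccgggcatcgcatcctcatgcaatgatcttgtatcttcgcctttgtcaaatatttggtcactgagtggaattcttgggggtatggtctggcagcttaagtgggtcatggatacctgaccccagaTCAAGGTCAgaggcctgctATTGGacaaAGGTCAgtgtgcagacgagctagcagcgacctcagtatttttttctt
The Crxos match to STAT reads TTCCTGGAA and lies 246 to 238 bases before that start. A STAT match is present in 7.02% of 32851 promoter windows of the same length. Among the 721 genes that, like Crxos, have 3 listed windows, 15.7% hold it in at least 1 of them. The Bhmt window held the ESRRB motif 75 to 67 bases before the start, which 0.387% of windows hold. It held 3 copies of AGGTCA (14% of windows hold any), of which 1 is the end of the ESRRB match, and a CCAAT box on the opposite strand (33.8% of windows). The only match in the Bex6 window was a CCAAT box 97 to 93 bases before the start. Of the other Crxos windows, the second held a GC box (32.7% of windows) and the first held none of the 8. No motif was present at all 3 genes searched, and these matches are letters in a window, not sites known to be bound.

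Before the values, the labels were checked against the transcripts the siRNAs target. In no group did the targeted transcript pass (limma, Benjamini-Hochberg over 18194 genes). Socs3 itself read 1617 and 1107 on the arrays labelled siSocs3, against 785.5 and 1246 on the siNonTarget arrays (a log2 difference of 0.44 ± 0.24, SE, n = 2 arrays per group, limma adjusted p = 0.281). Adjusted p was 0.988 for Sox17, 0.775 for Fbxw7 and 0.778 for Rnf31, so every direction below rests on the labels. The stem cell label was checked with 10 markers: the lowest reading of any of them, 311 for Esrrb, was above every array median, and their summed intensity was 49632 to 51643 on siSocs3 arrays and 31293 to 41743 on the other 8. Of the 10 markers 5 rose and 0 fell in siSocs3 against siNonTarget (limma, adjusted p under 0.05), where 3.59% of all genes rose and 5.66% fell. These were Tdgf1 (2.06 ± 0.33, log2, SE), Esrrb (1.58 ± 0.23), Nanog (1.54 ± 0.22), Utf1 (1.5 ± 0.24) and Zfp42 (1.01 ± 0.17), while Pou5f1 (1.11 ± 0.32, limma adjusted p = 0.0645) and Sox2 (−0.08 ± 0.14) did not pass. The count of 5 was 2 without siNonTarget replicate 1 and 0 without siSocs3 replicate 1. The part of this in the values of the 4 genes, which were high on the same arrays, was not tested. Array medians lay between 46.39 and 47.95. RNA integrity, read as the log2 difference between the 3′ and 5′ actin probe sets, gave 0.60 on siFbxw7 replicate 1 and 0.50 on siNonTarget replicate 1, against 0.21 to 0.29 on the other 8 arrays. Nothing in the labels says that replicates are separate cultures, so the p-values reflect only the spread between arrays, which may be technical.

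All 4 genes stood higher on both arrays labelled siSocs3 than on each of the other 8 arrays, by 6.63-fold to 11-fold in the means against siNonTarget. Intensities are RMA values on a linear scale; they are compared for the same probe set across arrays and not between genes. The brighter Crxos probe set, 1460605_at, read 2432 and 1294 on the siSocs3 arrays. It read 266 and 125 on siSox17, 121 and 198 on siFbxw7, 277 and 316 on siRnf31, and 116 and 225 on siNonTarget arrays. The lowest siSocs3 array was thus 4.10 times the highest of the others, siRnf31 replicate 2. The log2 difference between siSocs3 and siNonTarget was 3.45 ± 0.45 (SE, n = 2 arrays per group), rank 1 of 18194 rises.

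The dimmer Crxos probe set, 1439973_at, ordered the groups alike at the top. It read 182 and 145 on siSocs3 arrays, 44.4 and 28.6 on siSox17, 25.1 and 37.0 on siFbxw7, 35.0 and 41.8 on siRnf31, and 33.1 and 33.8 on siNonTarget arrays. Its difference of 2.28 ± 0.24 (SE, n = 2 arrays per group) was smaller than that of the brighter probe set. On the 8 arrays outside siSocs3 this probe set lay between percentiles 36.0 and 48.5 of all probe sets on its array. The brighter probe set lay between percentiles 64.0 and 77.3 there.

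Bex6, with probe set 1459923_at, read 158 and 61.4 on siSocs3 arrays, 9.22 and 9.19 on siSox17, 11.8 and 13.9 on siFbxw7, 12.8 and 14.6 on siRnf31, and 11.5 and 13.4 on siNonTarget arrays. The 8 arrays outside siSocs3 lay at percentiles 7.6 to 22.2 of their arrays, at the bottom of the range. Its lowest siSocs3 array was 4.21 times the highest of the others. The difference from siNonTarget was 2.99 ± 0.35 (log2, SE, n = 2 arrays per group), rank 4. Without siSocs3 replicate 1 it was 2.31, and without siSocs3 replicate 2 it was 3.67.

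Bhmt, with probe set 1450624_at, read 910 and 453 on siSocs3 arrays, 157 and 141 on siSox17, 109.5 and 229 on siFbxw7, 211 and 153 on siRnf31, and 74.5 and 122 on siNonTarget arrays. The gap to the other arrays was the smallest of the 5 probe sets, at 1.98 times the highest of them, siFbxw7 replicate 2. Its difference from siNonTarget was 2.75 ± 0.41 (SE, n = 2 arrays per group), rank 7.

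Mep1b, protein-coding and at bases 21072344 to 21100199 of chromosome 18 in GRCm38.p6, is measured by probe set 1418215_at. It read 587 and 500.1 on siSocs3 arrays, 154 and 196 on siSox17, 70.4 and 174 on siFbxw7, 160.04 and 103 on siRnf31, and 79.3 and 84.4 on siNonTarget arrays. The lowest siSocs3 array was 2.56 times the highest of the others, siSox17 replicate 2. The difference from siNonTarget was 2.73 ± 0.37 (SE, n = 2 arrays per group), rank 8. For background, 11.3% of the 18194 genes had both siSocs3 arrays above all 8 others, and 0.418% had them more than 2-fold above. Crxos, Bex6 and Mep1b were past that 2-fold gap and Bhmt was not, but the siSocs3 arrays chose the genes, so nothing is read from these counts. The ranks between them belonged to Trim43a and Pramel7 (3.40 ± 0.32 and 3.10 ± 0.40), Pramel6 (2.98 ± 0.50) and Vnn1 (2.90 ± 0.79), and rank 9 to Tcstv3 (2.69 ± 0.21). In bulk RNA, fewer cells with a transcript and less transcript per cell cannot be told apart.

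**Figure D1:**
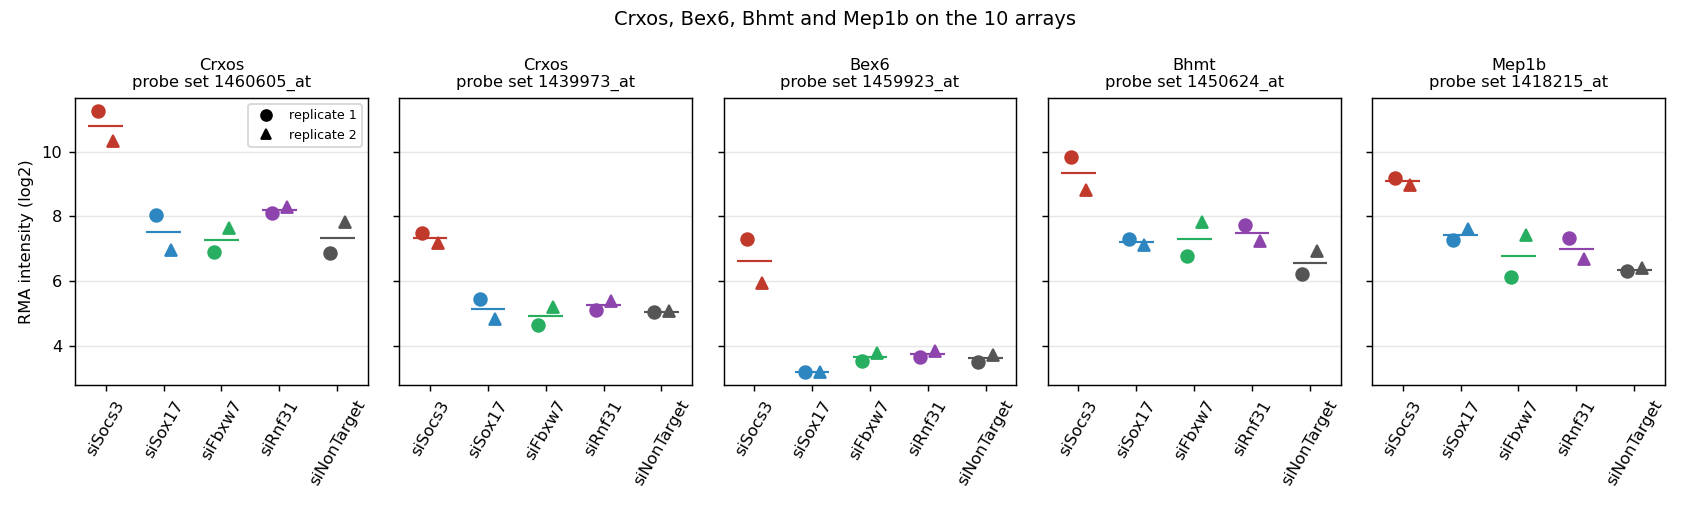
RMA intensity on the log2 scale (vertical axis) of the 5 probe sets on each of the 10 arrays, by siRNA group; circles are replicate 1, triangles replicate 2 and bars group means, and levels are not comparable between panels. Both siSocs3 arrays sit above all other arrays in every panel, and siSocs3 replicate 1 sits above replicate 2 in all 5.

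The siSocs3 replicates differed from each other in size. All 5 probe sets were higher on siSocs3 replicate 1 than on replicate 2, by 2.58-fold for Bex6, 2.01-fold for Bhmt, 1.88-fold and 1.25-fold for the brighter and dimmer Crxos probe sets, and 1.17-fold for Mep1b. The share of all genes higher on siSocs3 replicate 1 was not counted, so nothing is read from the shared direction. At least 2-fold differences between these 2 arrays were rare, at 13 of 18194 genes (0.0715%), 6 higher on replicate 1 and 7 on replicate 2. Bex6 and Bhmt were 2 of those 13, and Bex6 had the largest difference toward replicate 1. The choice of genes used these same arrays and can favour genes with 1 very high siSocs3 array, so nothing is read from their place among the 13. Another 2 of the 6 higher on replicate 1, named only by clone or locus, also stood 2.24 and 2.41 above siNonTarget on the log2 scale, while the remaining 2, Sva and Igfbp1, stood 0.60 and 0.16 above it. Mep1b had the closest siSocs3 arrays of the set (SD 0.16 on the log2 scale, n = 2).

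The siSocs3 arrays also stood well above the other siRNA groups. For Crxos they were 3.28 ± 0.45 against siSox17, 3.52 ± 0.45 against siFbxw7 and 2.58 ± 0.45 against siRnf31 (log2, SE, n = 2 arrays per group). Bex6 gave 3.42 ± 0.35, 2.95 ± 0.35 and 2.85 ± 0.35 in the same order. Bhmt gave 2.11, 2.02 and 1.84, each ± 0.41. Mep1b gave 1.64, 2.29 and 2.07, each ± 0.37. Bhmt and Mep1b thus stood less far above each of the other siRNA groups than above siNonTarget. So did Crxos for siSox17 and siRnf31, and Bex6 for siFbxw7 and siRnf31. The genes were picked by their difference from siNonTarget, so nothing is read from this. These comparisons share the siSocs3 arrays with the choice of genes and were not tested.

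On the arrays of the other siRNAs the 4 genes lay much nearer to the controls. Against siNonTarget, Bhmt was 0.64 in siSox17, 0.73 in siFbxw7 and 0.91 in siRnf31, each ± 0.41 (log2, SE, n = 2 arrays per group). Mep1b was 1.09 in siSox17, 0.44 in siFbxw7 and 0.65 in siRnf31, each ± 0.37. Crxos by its brighter probe set was 0.17, −0.07 and 0.87 in these groups, each ± 0.45, and Bex6 was −0.43, 0.04 and 0.14, each ± 0.35. By its dimmer probe set Crxos was 0.093, −0.133 and 0.195, each ± 0.241. Both siRnf31 arrays were above both control arrays for Crxos, Bhmt and Mep1b, and so were both siSox17 arrays for Bhmt and Mep1b. For Bex6 both siSox17 arrays were below both controls, and the other groups overlapped them. With 2 against 2 arrays exact permutation cannot go below 0.33, and the share of all genes separated in this way was not counted. Nothing is read from these separations. The genes were picked in part for low siNonTarget arrays, which all 3 comparisons share, so these differences are not independent of the choice and were not tested. The siNonTarget arrays themselves differed for the brighter Crxos probe set (1.94-fold) and Bhmt (1.64-fold), with the array of higher actin difference the lower. For the dimmer Crxos probe set they differed by 1.02-fold. Several of these differences turned on 1 array. Mep1b in siFbxw7 was 1.09 without siFbxw7 replicate 1 and −0.22 without siFbxw7 replicate 2. Crxos in siSox17 was −0.37 without siSox17 replicate 1 and 0.72 without siSox17 replicate 2. Crxos in siFbxw7 was −0.54 without siNonTarget replicate 1 and 0.41 without siNonTarget replicate 2. Bhmt in siFbxw7 was 1.26 without siFbxw7 replicate 1 and 0.20 without siFbxw7 replicate 2.

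**Figure D2:**
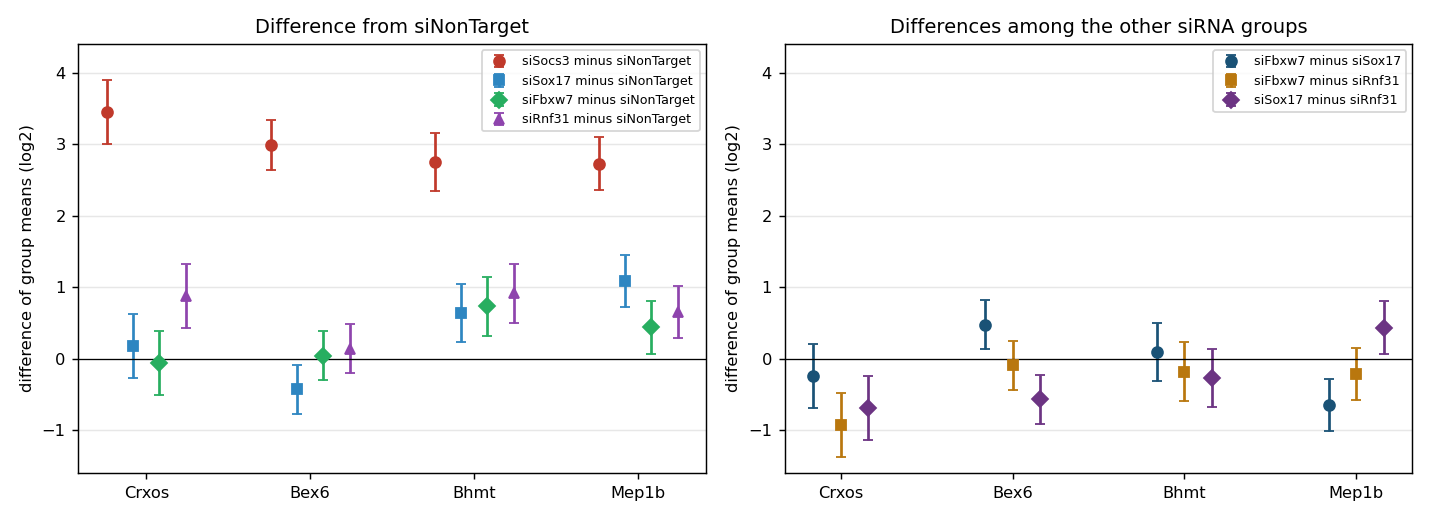
Differences of group means on the log2 scale (vertical axis) for the 4 genes, with bars of 1 standard error from the linear model (n = 2 arrays per group); the left panel sets each siRNA group against siNonTarget and the right panel the other siRNA groups against each other. The siSocs3 differences lie between 2.73 and 3.45, and all others between −0.94 and 1.09.

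The groups that played no part in choosing the genes, siSox17, siFbxw7 and siRnf31, allow a test. Of the 4 genes, 0 passed in any of the 3 contrasts among them (limma, adjusted p under 0.05 over 18194 genes), and 0 had an unadjusted p under 0.05. The background was the same: 0% of 18194 genes passed in each contrast, while 1017, 945 and 1397 genes had an unadjusted p under 0.05. Crxos had the largest difference, −0.94 in siFbxw7 against siRnf31, with a 95% interval from −1.95 to 0.08 (limma adjusted p = 0.922). On the brighter Crxos probe set the arrays of these groups do not overlap, since 121 and 198 on siFbxw7 are both below 277 and 316 on siRnf31. On the dimmer Crxos probe set they overlap, at 25.1 and 37.0 on siFbxw7 against 35.0 and 41.8 on siRnf31. The share of all genes whose arrays separate was not counted, so nothing is read from the separation. Mep1b was −0.65 in siFbxw7 against siSox17, with an interval from −1.48 to 0.18 (limma adjusted p = 0.855). It was −1.30 without siFbxw7 replicate 2 (limma adjusted p = 0.187, the lowest over its alternatives) and 0.00 without siFbxw7 replicate 1. Bex6 was −0.57 in siSox17 against siRnf31, from −1.35 to 0.21 (limma adjusted p = 0.73), and its siSox17 arrays of 9.22 and 9.19 were the lowest of all 10. Bhmt differed most in siSox17 against siRnf31, by −0.27, with an interval from −1.20 to 0.66 (limma adjusted p = 0.907). All these intervals include 0 but are wide, so the groups are not shown to be alike. The adjusted p of the 12 member contrasts ran from 0.73 to 0.98.

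The order of the groups below siSocs3 differed from gene to gene, and no neighbouring pair in it was separated by the test where one was run. By mean log2 intensity Crxos ran from siRnf31 (8.21) through siSox17 (7.51) and siNonTarget (7.34) to siFbxw7 (7.27). Bhmt ran from siRnf31 (7.49) through siFbxw7 (7.31) and siSox17 (7.21) to siNonTarget (6.58). Mep1b ran from siSox17 (7.44) through siRnf31 (7.01) and siFbxw7 (6.79) to siNonTarget (6.35). Bex6 ran from siRnf31 (3.77) through siFbxw7 (3.68) and siNonTarget (3.63) to siSox17 (3.20). Within groups the replicate SD on the log2 scale reached 0.77 for Crxos in siSox17, 0.92 for Mep1b and 0.75 for Bhmt in siFbxw7, wider than most gaps between neighbouring means. In all 5 probe sets siFbxw7 replicate 1, the array with the highest actin difference, read below replicate 2. So did siNonTarget replicate 1, the array with the next highest. Crxos holds 2 of the 5 probe sets, and the share of all genes lower on these arrays was not counted. Nothing is read from these counts, and the part of RNA quality in them was not tested.

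Likeness of profiles was measured as the root mean square difference of log2 values over the 10 arrays after each gene was centred on its own mean, so 0 is identity. The median over all genes was 1.39 for Crxos, 1.28 for Bex6, and 1.0 for Bhmt and for Mep1b. Within the set, Bhmt and Mep1b were the closest pair (0.37), then Crxos and Bex6 (0.47), and Crxos and Mep1b or Bex6 and Mep1b the farthest (0.73 each). Over the 6 arrays of siSox17, siFbxw7 and siRnf31, which the choice did not use, Bex6 and Bhmt (0.35) and Bhmt and Mep1b (0.38) were closest and Crxos and Mep1b (0.69) farthest. Crxos and Bex6 (0.5) were farther apart there than Crxos and Bhmt (0.46). The median over all genes was not taken for these 6 arrays, where Bex6 lay at the bottom of the range. How ordinary such values are is therefore not known. The high siSocs3 arrays set most of the 10-array measure, and genes with large rises are close to each other by that alone.

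Crxos and Bex6 shared Pramel18 and Ubtfl1 among their nearest genes, and Bhmt and Mep1b shared Epp13. Next to Crxos stood Trim43a (0.24), Pramel7 (0.35), Pramel18 (0.38), Ubtfl1 (0.46) and Bex6 (0.47). Bex6 was nearest to Tcstv3 (0.28), Naalad2 (0.36), Pramel18 (0.40), Zfp352 (0.41) and Ubtfl1 (0.41). Tcstv3 and Zfp352 are known from the 2-cell embryo, and Pramel genes encode leucine-rich repeat proteins of early embryo and germ line. Bhmt was nearest to Epp13 (0.36), Mep1b (0.37), Zfp296 (0.38), Sgk1 (0.43) and Hspa1a (0.44), and Mep1b to Epp13 (0.35), Gsta3 (0.35), Bhmt (0.37), Tdgf1 (0.39) and Aspa (0.40). Zfp296 encodes a zinc finger protein of pluripotent cells, Tdgf1 the Nodal co-receptor, Sgk1 a kinase, Hspa1a a heat shock chaperone, Gsta3 a glutathione transferase and Aspa the enzyme that cleaves N-acetylaspartate. Over the 6 arrays of siSox17, siFbxw7 and siRnf31 the same listed genes ran in another order. For Crxos, Pramel18 (0.25) was then nearer than Trim43a (0.28), for Bhmt Zfp296 (0.23) nearer than Epp13 (0.25), and for Mep1b Gsta3 (0.22) nearer than Epp13 (0.31). Tcstv3 (0.16) was still the nearest of the 5 to Bex6. These are descriptions, with no test.

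**Figure D3:**
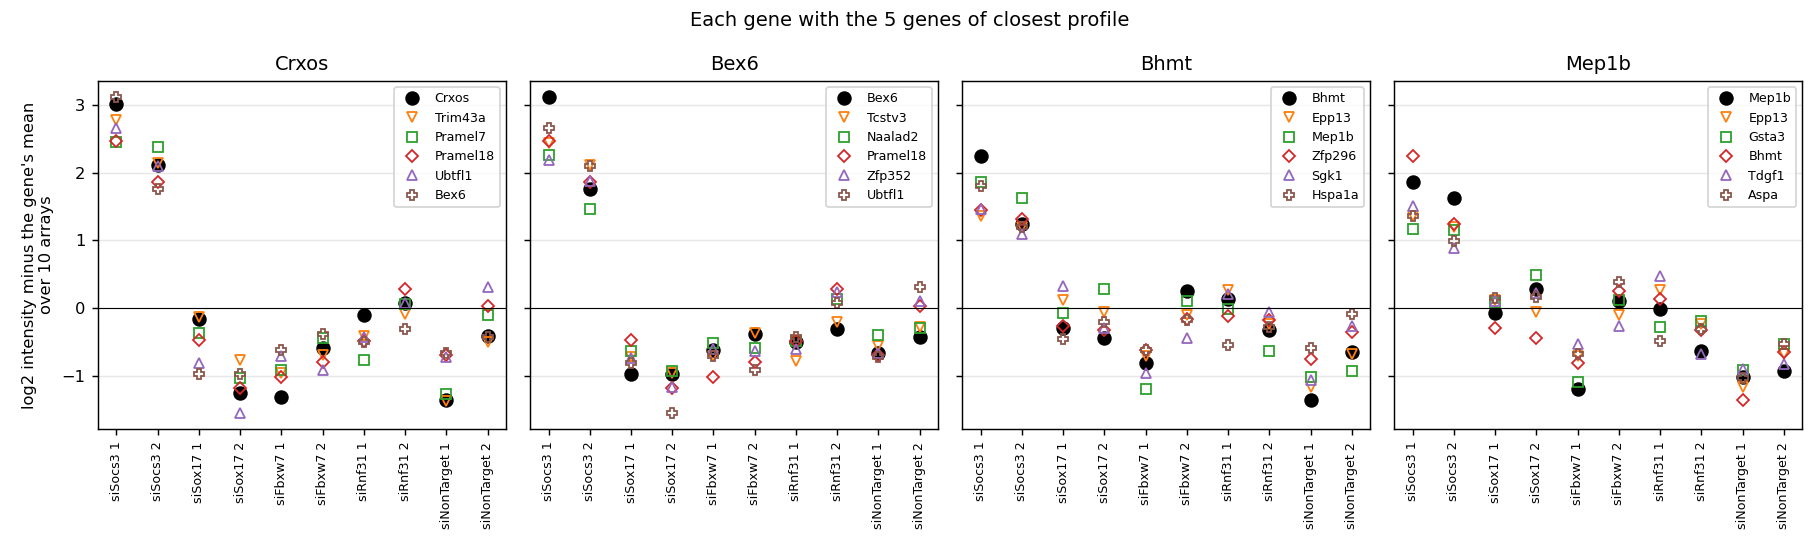
Log2 intensity minus each gene's own mean over the 10 arrays (vertical axis) for the 4 genes (filled circles) and the 5 genes closest to each (open symbols), array by array. All plotted genes are above their mean on both siSocs3 arrays, and Crxos lies 0.24 from Trim43a over the 10 arrays as root mean square difference.

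The relatives and pathway partners of the genes were described from 4 lists, which hold none of the 4 genes. Over all genes 3.59% passed as higher and 5.66% as lower in siSocs3 against siNonTarget (limma, adjusted p under 0.05). Of the paired-like homeobox genes, 27 of 35 listed were measured, and 9 rose and 0 fell, with a median difference of 0.18 beside 0.03 over all genes. Rhox6, an X-linked homeobox gene of reproductive and embryonic tissues, read 778 and 695 on siSocs3 arrays, against 148 and 259 on siNonTarget arrays (1.91 ± 0.23, limma adjusted p = 0.00432). Obox6, of an oocyte homeobox family, read 247 and 201 on siSocs3 arrays, against 50.2 and 65.0 on siNonTarget arrays (1.96 ± 0.27, limma adjusted p = 0.0067). Rhox9 (1.54 ± 0.26) and Rhox5 (1.08 ± 0.17) rose as well. Beside these, Obox2, Obox3, Gsc, Mixl1 and Sebox rose by 0.57 to 0.88. Of these, Obox2 (10.9 to 25.1), Obox3 (14.9 to 23.2) and Gsc (13.6 to 37) stayed below every array median on all 10 arrays. The count of 9 was 3 without siNonTarget replicate 1 and 0 without siSocs3 replicate 1.

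Crx, the neighbour of Crxos, did not pass. It read 22.8 and 21.6 on siSocs3 arrays, against 22.1 and 18.3 on siNonTarget arrays (0.14 ± 0.14, SE, limma adjusted p = 0.556), and it stayed between 16.9 and 22.8 on all 10 arrays, below the array medians. Otx2, the anterior neural homeobox gene of the same class, ran from 8.9 to 12 (0.19 ± 0.12, limma adjusted p = 0.347).

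None of the X-linked relatives of Bex6 rose. Of 11 listed genes of the BEX and TCEAL family 8 were measured, 0 rose and 1 fell, with a median of −0.22. Bex1 read 14387 and 14983 on siSocs3 arrays, against 12709 and 15227 on siNonTarget arrays (0.08 ± 0.11, limma adjusted p = 0.709). Bex2 (−0.24 ± 0.11), Bex3 (−0.02 ± 0.17) and Bex4 (−0.19 ± 0.12) did not pass either. The fall was in Tceal1, a nuclear protein gene of the sister family (−0.66 ± 0.16, limma adjusted p = 0.0378). The call was lost with quantile normalization, with every probe set tested alone, or without both arrays of high actin difference. It was also lost when any 1 array of siSocs3, siSox17 or siNonTarget was left out. Tceal1 also read lower than siNonTarget in siSox17 (−0.87), siFbxw7 (−0.55) and siRnf31 (−0.43), without passing.

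Around Bhmt, 25 of 30 genes of the methionine, betaine and folate cycle were measured, 2 rose and 1 fell, with a median of 0.12. Dmgdh, the mitochondrial dehydrogenase of the dimethylglycine that Bhmt releases, read 90.4 and 62.3 on siSocs3 arrays, against 31.5 and 39.2 on siNonTarget arrays (1.10 ± 0.25, limma adjusted p = 0.0311). Pemt, which methylates phosphatidylethanolamine to phosphatidylcholine, was 0.77 ± 0.16 higher (limma adjusted p = 0.0214). Mthfd2l, a mitochondrial folate dehydrogenase, fell to 75.9 and 81.4 on siSocs3 arrays, against 174 and 207 on siNonTarget arrays (−1.27 ± 0.29, limma adjusted p = 0.0296), a call lost when any 1 array of siSocs3, siSox17 or siNonTarget was left out. Mthfd2l also read lower than siNonTarget in siSox17 (−1.21), siFbxw7 (−0.7) and siRnf31 (−0.5), without passing. The paralog Bhmt2 read 96.2 and 59.6 on siSocs3 arrays, against 32.9 and 40.7 on siNonTarget arrays, and did not pass (1.05 ± 0.30, limma adjusted p = 0.062). It passed without either siFbxw7 array (limma adjusted p = 0.0272) and as the mean of its probe sets (1.13, limma adjusted p = 0.0316). The count of 3 was 0 without siNonTarget replicate 1 and 0 without siSocs3 replicate 1, and 1 without siNonTarget replicate 2.

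Around Mep1b, the list was of astacin proteases and brush-border peptidases, with some peptidases of other kinds. Of its 18 genes 16 were measured, 2 rose and 0 fell, with a median of 0.03, beside 0.03 over all genes. The measured astacins, Mep1a, Bmp1, Tll1, Tll2 and Astl, did not pass. Naalad2, a zinc peptidase of another family, read 399 and 230.2 on siSocs3 arrays, against 63.3 and 67.9 on siNonTarget arrays (2.21 ± 0.26, limma adjusted p = 0.00417). As the mean of its probe sets it was 1.56 (limma adjusted p = 0.00848). Cndp2, a cytosolic dipeptidase, was 0.50 ± 0.12 higher (limma adjusted p = 0.0379) and lost the call with the replicate block, with the 2 groups alone, with every probe set tested alone, without both arrays of high actin difference, or when any 1 array of siSocs3, siSox17, siRnf31 or siNonTarget was left out. Mep1a, the other meprin subunit, read 21.4 and 19.4 on siSocs3 arrays, against 19.3 and 20.8 on siNonTarget arrays (0.03 ± 0.14, limma adjusted p = 0.924).

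**Figure D4:**
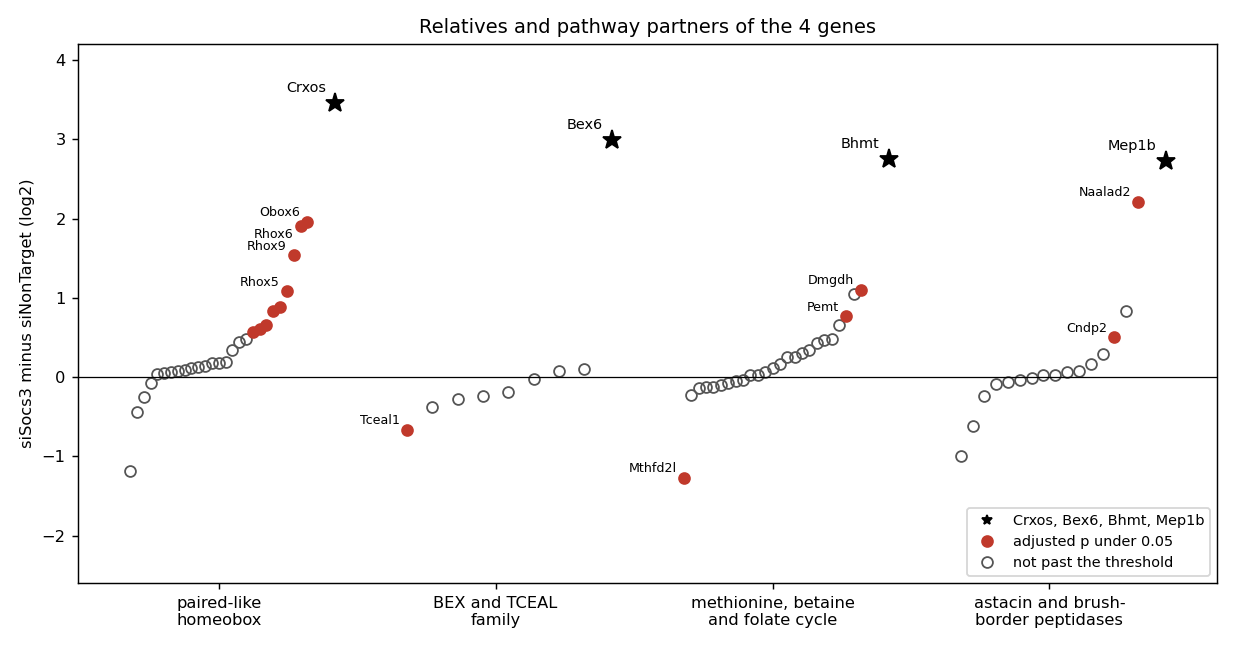
Difference between siSocs3 and siNonTarget on the log2 scale (vertical axis) for the measured genes of 4 lists, with filled circles for genes at adjusted p under 0.05 and stars for the 4 genes of the set, which this same difference chose. The stars lie between 2.73 and 3.45; among listed genes the highest is Naalad2 at 2.21.

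Because Bhmt, Mep1b and Crxos are also known from or named for liver, intestine, kidney and retina, markers of those tissues and of fibroblast feeder cells were read on the same arrays. Of the 8 measured hepatocyte markers 6 were below the array median on all 10 arrays, and their summed intensity was 343 to 346 in siSocs3 against 351 to 538 in siNonTarget. Albumin (Alb) stayed between 22.1 and 27.3. For enterocytes it was 8 of 9, with a sum of 405 to 528 in siSocs3 against 255 to 308 in siNonTarget, and Vil1 between 34.6 and 44.1. The enterocyte sum was also 417 to 451 in siSox17 and 351 to 494 in siRnf31, and Cdx2, at 67.4 to 312 over the 10 arrays, had the widest range in it. Cdx2 was 1.45 ± 0.41 higher in siSocs3 than in siNonTarget (log2, SE, limma adjusted p = 0.0602). The kidney proximal tubule list had 6 of 10 below the median, with 583 to 585 in siSocs3 against 677 to 1084 in siNonTarget. Ttr, at 69.6 to 369, had the widest range in the hepatocyte sum, and Lrp2, at 277 to 813.5, in the kidney sum. In siSocs3 against siNonTarget Ttr was −0.72 ± 0.4 (log2, SE, limma adjusted p = 0.294) and Lrp2 −1.05 ± 0.3 (limma adjusted p = 0.061). For retina it was 8 of 9, with 290 to 300 in siSocs3 against 226 to 236 in siNonTarget. The retina sum was 246 to 276 in siSox17, 235 to 291 in siFbxw7 and 229 to 243 in siRnf31. Rlbp1, at 60.6 to 136.2 over the 10 arrays, had the widest range in it (0.87 ± 0.26, log2, SE, limma adjusted p = 0.0684). No gene of these 4 lists passed in siSocs3 against siNonTarget, where 9.26% of all genes passed in either direction. The fibroblast list had 3 of 10 below the median on all 10 arrays. The share of all genes that stay below it was not counted, so nothing is read from these counts of markers below the median. The fibroblast list summed to 3153 to 3900 in siSocs3 against 1748 to 4713 in siNonTarget, with Col1a2 and Twist1 lower and 0 higher (limma, adjusted p under 0.05). Acta2, at 142.7 to 3162.3 over the 10 arrays, had the widest range in that sum and was 1.83 ± 1.17 higher (log2, SE), not past the threshold. Pdgfrb, Thy1, Col3a1 and Postn also read higher without passing, and Dcn lower. Beyond these readings, the part of other cell types in the values of the 4 genes was not tested.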

How the data were processed

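Total RNA (5 ng) was amplified and hybridised on Affymetrix 1-colour arrays, per the labels' protocols. The deposited values are intensities made by the authors with RMA, per the submitters' processing notes, which corrects background, normalizes between arrays and summarises probes. Neither its version nor any later scaling is stated in the labels. They run from 5.05 to 31606.3, so log2 was taken first.

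The platform annotation names 34958 probe sets with 1 symbol; the 932 with several and 9211 it does not list were not used by name. Gene IDs of 34754 matched the RefSeq table of GRCm38.p6. Each of 18194 genes took its probe set of highest mean. A linear model over 5 groups was fitted with limma 3.58.1 in R 4.3.3 (5 residual and 3.98 prior degrees of freedom), two-sided, with Benjamini-Hochberg adjustment and a threshold of 0.05, and was tested on simulated data. Exact permutation of 2 against 2 arrays cannot go below 0.33. The number of arrays limits precision.

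The members, gene lists and motifs were chosen with earlier results of these data known. The named genes are the members, the targeted genes, close relatives, the 5 nearest profiles of each member (Gm, Rik, clone and locus names skipped) and up to 4 called genes per list of smallest p; Obox2, Obox3, Gsc, Mixl1, Sebox and genes ranked beside the members were named after their values were seen. Promoter windows are RefSeq's. Plots used matplotlib 3.10.9 under Python 3.11.15. Alternatives were a replicate block, the 2 groups alone, 2 normalizations, 2 filters on dim genes, another prior, 2 probe set rules and leaving out each array; leaving out both arrays of high actin difference, and all alternatives for the stem cell marker count, were added after seeing the data.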

Additional observations from a re-analysis of the deposited data

How the results depend on the processing

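The count of members past the threshold among siSox17, siFbxw7 and siRnf31 was 0 in all 20 alternatives run for each of the 3 contrasts, the replicate block included. The siSocs3 differences from siNonTarget, not tested, were 2.98 to 3.93 for Crxos over the left-out arrays (2.87 as the mean of its probe sets), 2.31 to 3.67 for Bex6, 2.25 to 3.25 for Bhmt and 2.61 to 2.84 for Mep1b. Bex6 had 18 alternatives, since the settings without the dimmest 30% and 50% of genes left it out. Mep1b in siFbxw7 ran from −0.22 to 1.09 over the left-out arrays and was 1.04 without both arrays of high actin difference.

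Counts of related genes past the threshold in siSocs3 were less stable. Leaving out 1 array gave 0 to 10 of the paired-like homeobox genes (9 in the fit of all arrays), 0 to 1 of the BEX and TCEAL genes (1), 0 to 4 of the methionine, betaine and folate genes (3) and 1 to 2 of the astacin and brush-border genes (2). Without the dimmest 50% of genes the counts were 3 for homeobox, 1 for methionine and 1 for astacin genes, where fewer genes were tested. The BEX count was 0 with quantile normalization and 0 with every probe set alone, and 2 with a trended and robust prior. With every probe set alone the methionine count was 5. Without both arrays of high actin difference the BEX count was 0, methionine 1 and astacin 1. With the replicate block the astacin count was 1. The count of stem cell markers was 0 to 6 over the left-out arrays (5 in the fit of all arrays); its alternatives were added after seeing the data. The cause of these shifts was not tested. Of the 10 named list genes that passed, Naalad2 kept the call in all 19 alternatives run for it, 9 lost it without siSocs3 replicate 1 and 7 without siNonTarget replicate 1.

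Same-numbered replicates deviated together to a degree of −0.26 to 0.421 (correlation across genes, by pair of groups), so the numbers were not taken to pair the arrays. Bex6 and the dimmer Crxos probe set lay below the array medians outside siSocs3, and signal over background was not measured here.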
